A study of Mus musculus with 6 samples.

Results

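The genes described here are 39 markers of endothelial cells, which line blood and lymph vessels, and of the endocardium, the endothelium that lines the heart chambers. They were chosen by name, with earlier results of these data known. All 39 have a row among the 15159 genes of the count table. RNA of embryonic mouse heart cells (embryonic day 18.5, strain background C57BL/6 x 129S4/SvJae) was sequenced in 3 libraries of cells with an inducible mutant histone H3.3 that carries methionine in place of lysine 9 (H3K9M) and in 3 libraries of cells with inducible wild-type H3.3 (H3WT). Both groups received doxycycline at 2 µg/ml on the first 3 days and were grown for 4 days on soft silicone (PDMS) of 13 kPa. Both therefore carry an H3.3 transgene, and the labels leave unnamed the promoter that drives it. Nor do they tell whether each library is from its own animal, so the p-values below measure the spread between these libraries, which may be technical.

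Methylation of lysine 9 on histone H3 marks silenced chromatin, and histones with the K9M change are known to lower it. That mark was not measured here. Endothelial cells are known by a shared set of genes. VEGF receptors and the angiopoietin receptor TIE2 receive growth signals, VE-cadherin and PECAM-1 hold the cells together, and ETS factors such as ERG with the SOXF factors SOX7, SOX17 and SOX18 drive endothelial transcription. The endocardium adds genes such as Nfatc1, a transcription factor needed for valve formation. Heart cell cultures also hold cardiomyocytes, fibroblasts, mural cells and macrophages, some of which are known to express individual genes of the list.

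The libraries held 55550379 to 67994773 counts. Levels are given in CPM, the count scaled to library size, here with TMM-normalised library sizes. All 39 members passed the filter on low counts and were among the 14758 genes tested. Cardiomyocyte markers were abundant in both groups, with summed levels of 10 markers at 27540 to 31170 CPM in H3K9M and 25770 to 31760 CPM in H3WT. Of these, Myh6 alone averaged 15723 and 14926 CPM. The sums of 10 fibroblast markers were also high, at 15750 to 23360 CPM in H3K9M and 16680 to 22570 CPM in H3WT. The 39 endothelial and endocardial genes together reached 1269, 1377 and 1363 CPM in H3K9M replicates 1 to 3 and 1454, 1555 and 1726 CPM in H3WT replicates 1 to 3. The defining endothelial markers Cdh5 and Pecam1 were detected in every library, at no less than 38.0 and 20.5 CPM. Replicate 2 of either group lacks the word for the soft substrate in its title, although the growth protocol is the same, so the edgeR calls were also counted without it.

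Most endothelial members were at lower levels in H3K9M, but only Nos3 and Robo4 passed the test. Of the 39 members 33 (84.6%) had a negative log2 fold change, where 50.5% of all genes tested had one, and the median log2 fold change of the members was -0.50, against -0.002448 over all genes. At an edgeR adjusted p under 0.05, 2 members (5.13%) fell, where 1.05% of all genes fell, and 0 rose, where 0.935% of all genes rose (1.99% of all genes in either direction). At an unadjusted p under 0.05, 16 members were lower (41.0%; 8.61% of all genes) and 0 were higher (7.78% of all genes). All 3 H3K9M libraries lay below all 3 H3WT libraries in 12 members (30.8%; 11.3% of all genes) and above them in 1 (2.56%; 11.3% of all genes). Since the members were chosen with earlier results of these data known, these shares are a description only. These are bulk samples, in which fewer endothelial cells and less RNA per endothelial cell cannot be told apart.

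**Figure D1:**
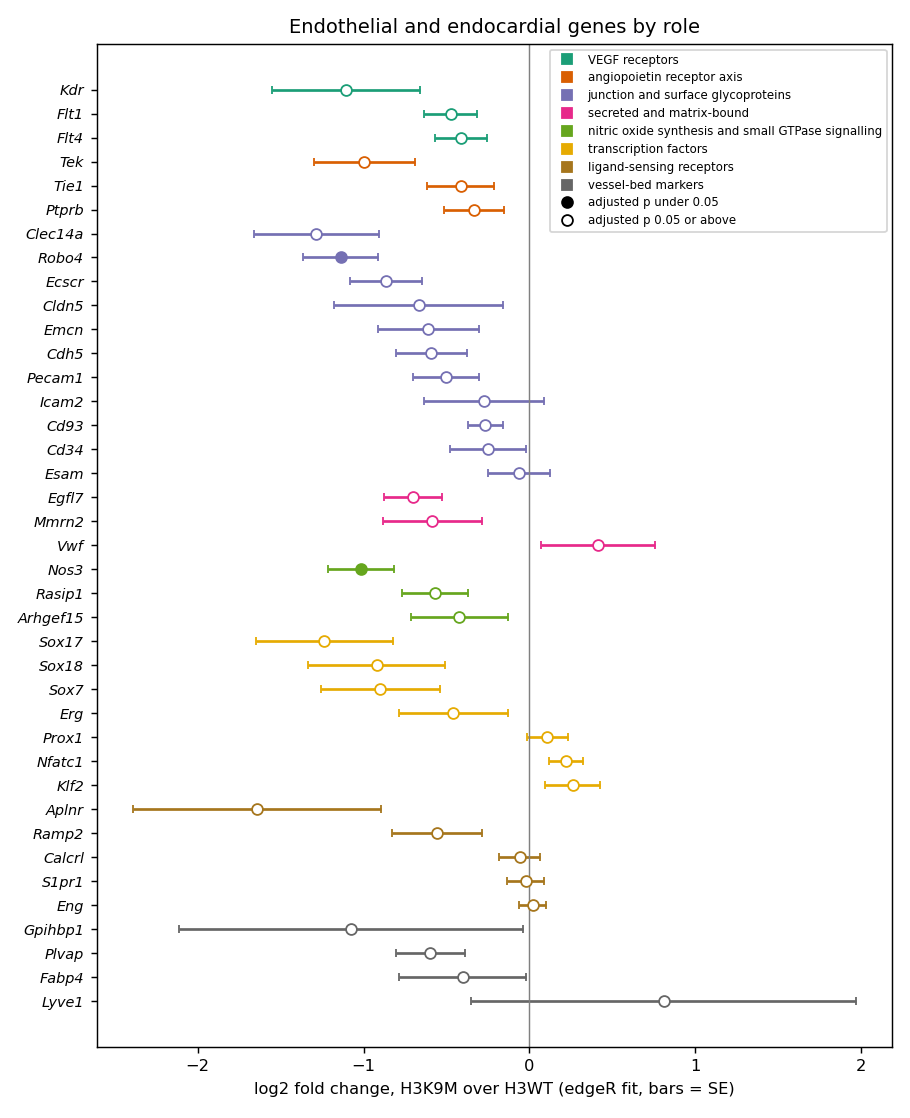
Log2 fold change of H3K9M over H3WT for each of the 39 members, in rows ordered by role, with the standard error of the edgeR fit as bars and filled points for an adjusted p under 0.05. Only Nos3 (-1.02) and Robo4 (-1.14) are filled, and 33 of the 39 points lie left of 0.

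Nos3 encodes endothelial nitric oxide synthase, the enzyme that makes the vasodilator nitric oxide. It was at 4.73, 5.76 and 3.77 CPM in H3K9M replicates 1 to 3 and at 9.62, 8.20 and 11.03 CPM in H3WT replicates 1 to 3. Every H3K9M library was below every H3WT library. Nos3 fell, with a log2 fold change of -1.02 and a standard error (the ± below) of 0.20 (edgeR adjusted p = 0.0444). Robo4, a roundabout receptor of endothelial cells known for stabilising vessels, was at 1.84, 2.22 and 2.02 CPM in H3K9M and at 4.90, 4.86 and 3.66 CPM in H3WT. It fell as well (log2 fold change -1.14 ± 0.23, edgeR adjusted p = 0.0453), again with no overlap. On mouse build GRCm38 (GENCODE M21) Nos3 spans 24364810 to 24384474 on chromosome 5 and Robo4 37401897 to 37415115 on chromosome 9, both as whole genes on the plus strand.

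Both calls sit close to the threshold. The call on Nos3 was lost without any 1 of the 6 libraries (edgeR adjusted p from 0.0753 to 0.126), and that on Robo4 without any but H3WT replicate 3 (0.111 to 0.200), while the log2 fold changes of Nos3 stayed between -1.18 and -0.87. In limma-voom 0 members passed, where 0.759% of all genes were lower, and the adjusted p values were 0.0517 (Nos3) and 0.0744 (Robo4). DESeq2 called 7 members lower, where it called 3.63% of all genes lower: Nos3 (DESeq2 adjusted p = 0.000232), Robo4 (0.000412), Ecscr (0.00346), Egfl7 (0.00489), Tek (0.00924), Clec14a (0.0205) and Sox17 (0.0439). It called 0 higher, where it called 3.17% of all genes higher. The exons of Nos3 overlap those of the antisense gene Gm15587 over 25.2% of their length and those of Atg9b on the opposite strand over 7.12%, and the strand setting of the counting is not given, so reads of these genes may not be separated. Atg9b itself had 35, 15 and 24 counts in H3K9M and 2, 4 and 14 counts in H3WT.

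**Figure D2:**
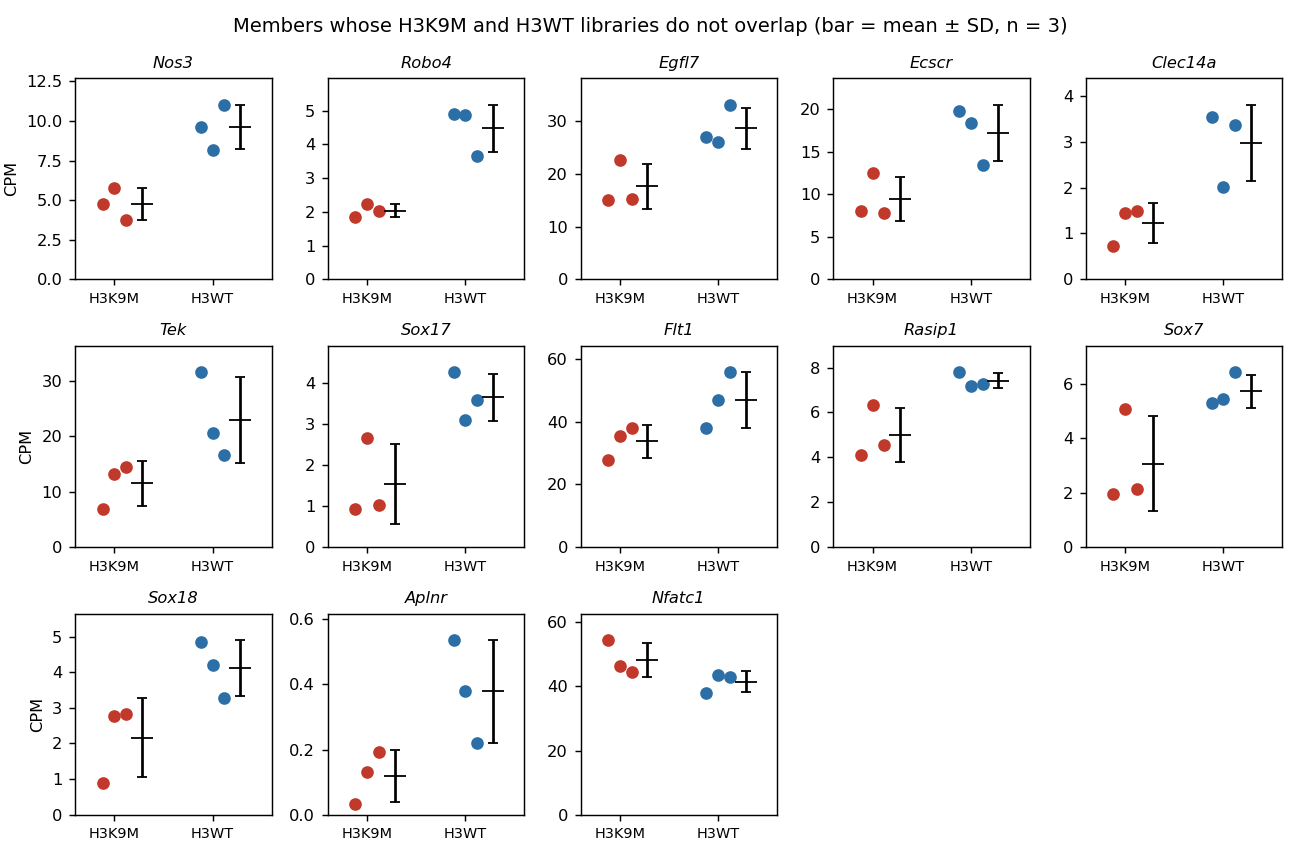
Level in CPM (linear axis from 0) of the 13 members whose groups did not overlap, with 1 point per library, H3K9M in red and H3WT in blue, and the mean ± SD (n = 3) as a black bar. In 12 panels the H3K9M points lie below the H3WT points, and in the panel of Nfatc1 they lie above them.

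The promoter sequence was given for 17 members, in 22 windows, on GRCm38.p6 in RefSeq. The 6 with the smallest p among these are shown, each as the 250 bases before the RefSeq start of transcription, since these members had negative log2 fold changes together. Capitals mark letters of the ETS core CAGGAA or its reverse complement TTCCTG, the only searched motif found in them. The windows are chr9:37401722-37401971 for Robo4, chr2:26580833-26581082 for the most upstream of 3 Egfl7 starts, chr12:58269259-58269508 for Clec14a, chr4:94739039-94739288 for Tek, chr5:147726012-147726261 for Flt1 and chr7:45627287-45627536 for Rasip1. Clec14a and Flt1 lie on the minus strand and the others on the plus strand. The RefSeq and GENCODE starts differ for 4 of these 6 genes, so the window reaches into the GENCODE gene by 75 bases for Robo4, 49 for Rasip1 and 32 for Clec14a, and lies wholly inside it for Egfl7.
Robo4: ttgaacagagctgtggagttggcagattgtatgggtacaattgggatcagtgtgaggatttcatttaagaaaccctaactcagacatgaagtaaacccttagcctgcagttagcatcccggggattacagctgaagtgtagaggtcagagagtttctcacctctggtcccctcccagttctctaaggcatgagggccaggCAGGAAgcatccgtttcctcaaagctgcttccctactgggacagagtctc
Egfl7: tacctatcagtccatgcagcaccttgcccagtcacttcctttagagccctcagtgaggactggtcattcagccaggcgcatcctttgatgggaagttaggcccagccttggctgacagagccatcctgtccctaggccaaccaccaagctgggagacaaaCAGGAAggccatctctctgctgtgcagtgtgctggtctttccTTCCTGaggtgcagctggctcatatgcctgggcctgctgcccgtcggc
Clec14a: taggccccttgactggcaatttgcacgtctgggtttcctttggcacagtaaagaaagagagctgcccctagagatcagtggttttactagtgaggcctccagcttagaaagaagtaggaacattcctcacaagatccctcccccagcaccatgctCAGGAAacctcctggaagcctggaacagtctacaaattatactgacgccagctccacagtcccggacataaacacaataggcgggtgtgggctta
Tek: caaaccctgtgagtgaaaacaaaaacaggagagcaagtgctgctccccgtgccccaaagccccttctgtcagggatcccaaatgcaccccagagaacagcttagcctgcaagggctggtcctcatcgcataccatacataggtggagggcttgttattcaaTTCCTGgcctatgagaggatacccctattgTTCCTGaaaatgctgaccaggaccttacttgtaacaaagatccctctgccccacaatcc
Flt1: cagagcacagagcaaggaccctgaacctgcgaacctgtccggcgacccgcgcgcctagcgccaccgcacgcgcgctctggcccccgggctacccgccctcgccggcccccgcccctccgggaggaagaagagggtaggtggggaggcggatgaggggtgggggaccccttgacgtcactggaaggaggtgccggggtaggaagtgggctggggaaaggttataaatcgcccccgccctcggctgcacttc
Rasip1: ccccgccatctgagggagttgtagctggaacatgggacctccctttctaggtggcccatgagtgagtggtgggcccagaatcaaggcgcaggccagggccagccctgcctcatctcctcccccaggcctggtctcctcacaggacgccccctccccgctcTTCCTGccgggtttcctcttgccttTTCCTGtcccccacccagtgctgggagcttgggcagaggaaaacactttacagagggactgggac

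The 5 motifs were searched on both strands in all 32851 promoter windows of this length. CAGGAA stood in 11 of the 22 member windows, from 10 of the 17 genes, and in 25.7% of all windows. The other ETS core CCGGAA stood in 1 member window (4.55%) and in 3952 of all 32851, the SOX motif ACAATG in 2 (9.09%; 10.7% of all), the GATA motif AGATAA in 1 (4.55%; 9.99% of all) and the FOX motif TGTTTAC in 0 (3.17% of all). Flt1 held none of the 5 motifs in the window shown. Some members contribute several windows, the 2 ETS cores share the letters GGAA, and a match describes letters only.

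The other cell-surface and junction genes gave negative values throughout. All 11 genes of this role had negative log2 fold changes, with a median of -0.59, and Robo4 was the 1 that passed. Ecscr, a small membrane protein of endothelial cells, was at 8.03, 12.4 and 7.78 CPM in H3K9M and at 19.8, 18.3 and 13.4 CPM in H3WT. Clec14a, a C-type lectin of vessel sprouts, was at 0.717, 1.45 and 1.501 CPM in H3K9M and at 3.55, 2.02 and 3.38 CPM in H3WT. For neither gene did the groups overlap, and the log2 fold changes were -0.87 ± 0.22 and -1.29 ± 0.38 (edgeR adjusted p = 0.0906 and 0.136).

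Cdh5, which encodes VE-cadherin, was at 38.6, 55.7 and 38.0 CPM in H3K9M and at 53.4, 57.1 and 88.7 CPM in H3WT. The groups overlapped, since H3K9M replicate 2 was above H3WT replicate 1 (log2 fold change -0.59 ± 0.21, edgeR adjusted p = 0.222). Pecam1, the adhesion molecule CD31, ranged from 20.5 to 28.7 CPM in H3K9M and from 27.5 to 44.5 CPM in H3WT (-0.50 ± 0.20, edgeR adjusted p = 0.253). Both genes were highest in H3WT replicate 3, and without it the log2 fold changes were -0.32 for Cdh5 and -0.26 for Pecam1. Cd34, a sialomucin also known from fibroblasts and progenitor cells, was at 107.0, 89.3 and 116 CPM in H3K9M and at 179, 94.5 and 97.8 CPM in H3WT. Here a single library, H3WT replicate 1, stood above the others, and without it the log2 fold change was 0.11 in place of -0.25. Esam, a tight junction adhesion molecule, had the value closest to 0 in this role (-0.06 ± 0.19, edgeR adjusted p = 0.907), and it was positive without H3K9M replicate 3 (0.01) or H3WT replicate 3 (0.08). The remaining 4 (Cldn5, Emcn, Icam2 and Cd93) had log2 fold changes of -0.67, -0.61, -0.27 and -0.27, and their groups overlapped. Single libraries weighed on 3 of them: leaving out H3WT replicate 1 gave -0.10 for Cldn5, leaving out H3WT replicate 3 gave 0.17 for Icam2 and -0.37 for Emcn, and leaving out H3K9M replicate 2 gave -1.04 for Emcn.

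The receptors for VEGF and angiopoietin all had negative log2 fold changes, and none of the 6 genes of these roles passed. Flt1, VEGF receptor 1, was at 27.8, 35.5 and 37.8 CPM in H3K9M and at 38.0, 46.8 and 55.7 CPM in H3WT, so the groups met without overlapping (log2 fold change -0.47 ± 0.16, edgeR adjusted p = 0.188). Kdr, VEGF receptor 2 and the main VEGF signalling receptor of vessels, ranged from 1.57 to 5.85 CPM in H3K9M and from 4.94 to 9.75 CPM in H3WT (log2 fold change -1.11 ± 0.45, edgeR adjusted p = 0.265). Flt4, the receptor for VEGF-C, was at 15.4, 14.3 and 12.5 CPM in H3K9M and at 14.8, 19.9 and 21.6 CPM in H3WT, with an overlap through H3WT replicate 1 (-0.42 ± 0.16, edgeR adjusted p = 0.237).

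Tek, with 2 matches to CAGGAA in its promoter window, encodes TIE2, the angiopoietin receptor. It was at 6.88, 13.2 and 14.3 CPM in H3K9M and at 31.5, 20.6 and 16.6 CPM in H3WT, with no overlap (log2 fold change -0.996 ± 0.30, edgeR adjusted p = 0.151). Its relative Tie1 ranged from 10.2 to 17.2 CPM in H3K9M and from 15.8 to 22.1 CPM in H3WT. Ptprb, the phosphatase VE-PTP that acts on TIE2, was far more abundant, at 330.3, 372 and 443 CPM in H3K9M and at 348, 523 and 573 CPM in H3WT. Its groups overlapped (-0.33 ± 0.18, edgeR adjusted p = 0.417).

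None of the 7 transcription factors passed, with negative log2 fold changes for the SOXF genes and Erg and positive ones for 3 others. Sox17 was at 0.939, 2.67 and 1.03 CPM in H3K9M and at 4.26, 3.10 and 3.58 CPM in H3WT. Sox7 was at 1.96, 5.10 and 2.15 CPM in H3K9M and at 5.31, 5.46 and 6.44 CPM in H3WT. Sox18 was at 0.888, 2.78 and 2.83 CPM in H3K9M and at 4.85, 4.198 and 3.28 CPM in H3WT. In each of these 3 genes all H3K9M libraries lay below all H3WT libraries, with log2 fold changes of -1.24 ± 0.42, -0.90 ± 0.36 and -0.92 ± 0.41 (edgeR adjusted p = 0.188, 0.259 and 0.316). H3K9M replicate 2 was close to the H3WT level in Sox7 and Sox17. Without that library Sox7 passed the test (edgeR adjusted p = 0.0489), as did Egfl7 (0.0468), whereas Nos3 and Robo4 did not.

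Erg, an ETS factor of endothelial identity, ranged from 2.25 to 5.84 CPM in H3K9M and from 4.54 to 5.77 CPM in H3WT (-0.46 ± 0.33, edgeR adjusted p = 0.542). Of the other 3 factors, Nfatc1 was at 54.3, 46.2 and 44.3 CPM in H3K9M and at 37.8, 43.6 and 42.9 CPM in H3WT, the 1 member with all H3K9M libraries above (0.22 ± 0.10, edgeR adjusted p = 0.343). Klf2, a factor induced by flow, was at 81.8, 57.6 and 61.2 CPM in H3K9M and at 67.7, 53.9 and 46.1 CPM in H3WT (0.26 ± 0.17, edgeR adjusted p = 0.494). Prox1, the factor of lymphatic endothelium that cardiomyocytes also express, ranged from 28.01 to 33.8 CPM in H3K9M and from 24.1 to 31.1 CPM in H3WT.

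Of the secreted genes, Egfl7, a matrix-bound regulator of vessel tubes whose promoter window held 2 matches to CAGGAA, was at 15.1, 22.7 and 15.3 CPM in H3K9M and at 27.0, 26.0 and 33.2 CPM in H3WT. The groups did not overlap, and the log2 fold change was -0.70 ± 0.18 (edgeR adjusted p = 0.0903). Mmrn2, an extracellular matrix protein that binds CD93 and CLEC14A, ranged from 4.37 to 8.97 CPM in H3K9M and from 7.64 to 11.5 CPM in H3WT. Vwf, the clotting factor stored in endothelial granules, was low in both groups, at 1.61 to 3.60 CPM in H3K9M and 1.71 to 1.95 CPM in H3WT (0.41 ± 0.35, edgeR adjusted p = 0.607), and without H3K9M replicate 2, its highest library, the value was -0.0051.

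Besides Nos3, the signalling genes did not pass. Rasip1, a RAS-interacting protein needed for vessel lumens, was at 4.10, 6.35 and 4.55 CPM in H3K9M and at 7.79, 7.19 and 7.29 CPM in H3WT, with no overlap (-0.57 ± 0.20, edgeR adjusted p = 0.199). Arhgef15 ranged from 1.66 to 3.04 CPM in H3K9M and from 2.49 to 3.51 CPM in H3WT. The exons of Rasip1 share 20.4% of their length with Izumo1 and those of Ramp2 share 33.4% with Vps25. Those of Sox17 share 16.8% with the opposite-strand transcript Gm37587. The counts of these 3 members are therefore less certain. Izumo1 itself had only 6, 4 and 3 counts in H3K9M and 6, 16 and 0 counts in H3WT. Vps25 was at 50.3 to 56.4 CPM in H3K9M and 50.2 to 54.4 CPM in H3WT.

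None of the 5 receptors that sense other ligands passed, and their median log2 fold change was -0.06. Eng, the TGF-beta co-receptor endoglin, was at 338, 343 and 315 CPM in H3K9M and at 301, 338 and 345 CPM in H3WT (0.02 ± 0.08, edgeR adjusted p = 0.942). S1pr1, the receptor for sphingosine-1-phosphate, was at 56.1, 51.1 and 46.5 CPM in H3K9M and at 49.3, 47.1 and 59.6 CPM in H3WT (-0.02 ± 0.11, edgeR adjusted p = 0.950). For both genes the sign depended on single libraries. The normal 95% interval of the log2 fold change ran from -0.14 to 0.18 for Eng and from -0.24 to 0.20 for S1pr1. With so few libraries such normal intervals are narrower than the F test allows. Calcrl, the receptor that binds adrenomedullin together with RAMP2, ranged from 10.7 to 11.7 CPM in H3K9M and from 10.5 to 12.1 CPM in H3WT, while Ramp2 itself ranged from 4.22 to 6.99 CPM and from 6.22 to 10.1 CPM in these groups. Aplnr, the apelin receptor, had 2, 8 and 11 counts in H3K9M and 30, 21 and 15 counts in H3WT, and with no overlap this low gene had the most negative log2 fold change of the members (-1.64 ± 0.75, edgeR adjusted p = 0.325).

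Markers of particular vessel beds did not pass. Plvap, which forms the diaphragms of endothelial pores and marks the developing endocardium, was at 11.1, 19.8 and 15.1 CPM in H3K9M and at 24.1, 19.4 and 26.3 CPM in H3WT (-0.60 ± 0.21, edgeR adjusted p = 0.199). The groups overlapped through H3K9M replicate 2. Fabp4, a fatty acid carrier of capillaries, ranged from 1.71 to 4.46 CPM in H3K9M and from 3.11 to 5.72 CPM in H3WT. Gpihbp1, which anchors lipoprotein lipase on capillaries, had 1 to 12 counts in H3K9M and 5 to 36 counts in H3WT, and its log2 fold change was -1.08, or 0.42 without H3WT replicate 1. Lyve1, a hyaluronan receptor of lymphatic vessels and of some macrophages, had 14, 0 and 14 counts in H3K9M and 2, 10 and 4 counts in H3WT, and a count of 0 allows up to 3 counts. No difference in Gpihbp1 or Lyve1 was detectable at these counts.

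The levels of the members spread widely. Per kilobase of exon, Eng was highest, at 82.1 CPM per kilobase in H3K9M and 81.0 in H3WT, followed by Klf2 (36.2 and 30.3), Ptprb (28.6 and 36.1), S1pr1 (16.8 and 17.1), Cd34 (14.3 and 17.0) and Cdh5 (10.5 and 15.8). Klf2 was above Ptprb in H3K9M and below it in H3WT, and each pair of groups overlapped in CPM. Pecam1 stood at 3.83 CPM per kilobase in H3K9M and 5.44 in H3WT, and Kdr at 0.376 and 0.809. In CPM, 3 members stayed under 1 in every library (Aplnr, Gpihbp1 and Lyve1), 14 had their highest library between 1 and 10, 19 between 10 and 100, and 3 above 100.

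The members known also from other heart cell types were set apart from the rest. These 8 genes (Eng, Cd34, Klf2, Prox1, Lyve1, Fabp4, S1pr1 and Nfatc1) had 3 negative and 5 positive log2 fold changes with a median of 0.06, and their summed level was 673.1, 620.4 and 614.0 CPM in H3K9M and 668.8, 605.1 and 625.4 CPM in H3WT. The other 31 members had 30 negative values with a median of -0.59, the exception being Vwf, which was negative too without H3K9M replicate 2, whereas Icam2, Esam and Gpihbp1 were positive without a single H3WT library. Their summed level was 595.6, 756.5 and 748.7 CPM in H3K9M and 785.3, 949.8 and 1101 CPM in H3WT, so every H3K9M library was below every H3WT library. Ptprb alone gave 330.3, 372 and 443 CPM of these sums in H3K9M and 348, 523 and 573 CPM in H3WT, and its own groups overlapped. The split of the list uses textbook knowledge of these genes and was made with earlier results of these data known. The 8 hold 5 of the 6 positive members, among them Nfatc1, introduced above as an endocardial gene. The contrast with the 31 therefore follows in part from the sorting.

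**Figure D3:**
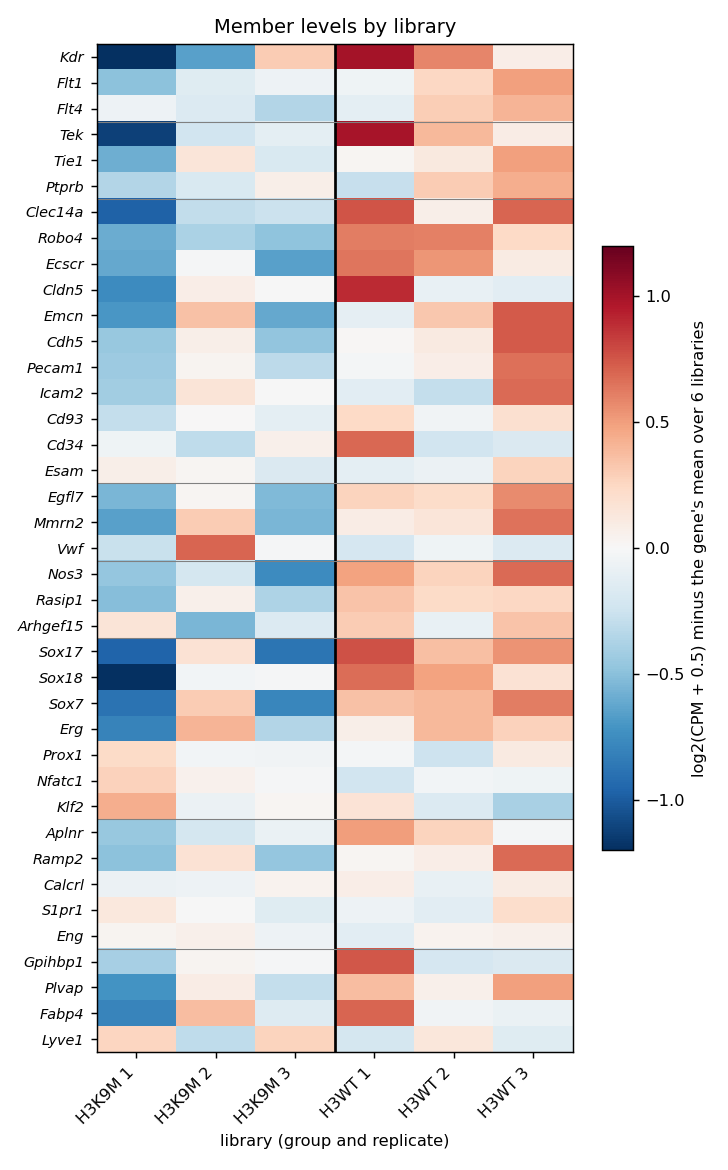
Level of each member in each library as log2(CPM + 0.5) minus the gene's mean over the 6 libraries, with H3K9M replicates 1 to 3 left of the black line and H3WT replicates 1 to 3 right of it, and grey lines between roles. H3K9M replicate 1 is the lowest library of 25 members, and H3WT replicates 1 and 3 are the highest of 14 and 19.

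Libraries of 1 group differed among themselves in the members. The median deviation of the 39 members from their mean over the 6 libraries, in log2(CPM + 0.5), was -0.466, 0.0209 and -0.157 in H3K9M replicates 1 to 3 and 0.163, 0.106 and 0.249 in H3WT replicates 1 to 3. H3K9M replicate 2 was thus closest to the H3WT libraries. The lowest value of a member was in H3K9M replicate 1 for 25 of the 39 genes, and the highest in H3WT replicate 3 for 19 and in H3WT replicate 1 for 14. Cdh5, Pecam1, Emcn, Mmrn2 and Ramp2 were highest in H3WT replicate 3, whereas Kdr, Tek, Sox17, Sox18, Aplnr and Cd34 were highest in H3WT replicate 1. The median log2 fold change was -0.41 when H3K9M replicate 1 was left out, -0.79 when H3K9M replicate 2 was and -0.84 when replicate 2 of both groups was, and it was negative in each of these fits. Without replicate 2 of both groups 0 members passed the edgeR test, as did 0 of all genes, with 2 libraries left in each group.

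Markers of other cell types also varied between libraries. The 10 macrophage markers summed to 231.2, 301.5 and 302.0 CPM in H3K9M and 586.4, 308.9 and 162.2 CPM in H3WT, all 10 with negative log2 fold changes and 0 of them past the threshold. H3WT replicate 1 held the highest and H3WT replicate 3 the lowest macrophage sum, although both were high in endothelial members. The 10 fibroblast markers summed to 15750, 20120 and 23360 CPM in H3K9M and 22570, 21060 and 16680 CPM in H3WT, with overlap, and 1 of them, Ddr2, rose (edgeR adjusted p = 0.0210). That call was lost without any 1 H3K9M library (0.0514 to 0.0773) and without H3WT replicate 2 (0.0979). The 10 mural cell markers summed to 5680 to 6248 CPM in H3K9M and 5970 to 7710 CPM in H3WT, and the 10 proliferation genes to 780.7 to 963.7 CPM in H3K9M and 833.9 to 1067 CPM in H3WT, with 9 of these 10 negative and 0 called. The 8 epicardial markers summed to 113.6 to 128.4 CPM in H3K9M and 104.6 to 173.0 CPM in H3WT, sums made up mostly of Tbx18 and Aldh1a2. Their median log2 fold change was 0.97, with 5 of 8 positive, and all H3K9M libraries lay above all H3WT libraries in 3 (Krt8, Msln and Upk1b). Krt8 rose (edgeR adjusted p = 0.0159), a call lost with limma-voom (0.0916), without H3K9M replicate 2 (0.0649) and without H3WT replicate 2 (0.0979). Of the 8 erythroid and platelet markers only Pf4 and Itga2b had a row, at 5.113 to 6.039 CPM together in H3K9M and 3.320 to 6.005 CPM in H3WT. Of all genes tested, 50.5% had negative log2 fold changes, 0.935% rose and 11.3% had all H3K9M libraries above all H3WT libraries. The part of these marker lists in the values of the endothelial members was not tested.

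**Figure D4:**
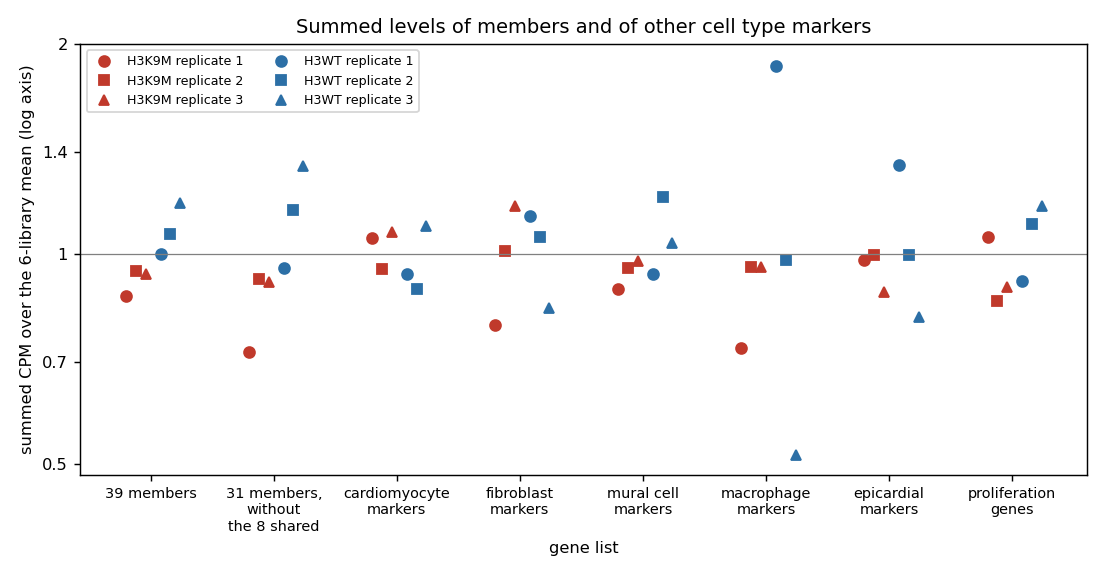
Summed CPM of a gene list in each library over its mean in the 6 libraries (log axis), for all 39 members, for the 31 members without the 8 known from other heart cell types, and for markers of other cell types, with H3K9M in red left of H3WT in blue. The 31 members separate the groups, as do all 39, whereas the macrophage markers run from 162.2 to 586.4 CPM within H3WT alone. The 8 were set apart with earlier results of these data known, and they hold 5 of the 6 positive members. Ptprb, whose own groups overlap, is the largest part of the sum of the 31.

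Set against Cdh5 and Pecam1 in the same library, the members were centred near 0. Pecam1 made up 34.0% to 37.2% of the sum of these 2 genes in H3K9M and 33.4% to 34.1% in H3WT. The sum was 59.15, 84.37 and 60.41 CPM in H3K9M and 80.84, 86.62 and 133.3 CPM in H3WT. Over the 37 other members the median log2 difference of the ratio was -0.01. Cdh5 and Pecam1 are members with log2 fold changes of -0.59 and -0.50, near the members' median of -0.50. A median ratio near 0 therefore follows from this choice of denominator. The ratio of 1 member lay below in every H3K9M library, where 0.745% of all genes did so, and that of 4 lay above, where 29.5% of all genes did so. The sum had a lower range in H3K9M, which by itself raises the ratio of an unchanged gene.

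The 1 member below was Nos3, at 7.997%, 6.83% and 6.24% of the sum in H3K9M and 11.9%, 9.46% and 8.28% in H3WT. Its log2 difference was -0.48, with an exact two-sided permutation p of 0.1, the smallest that 3 libraries against 3 can give. Groups without overlap give this value, so it adds nothing to the lack of overlap. Robo4 was at 3.12%, 2.63% and 3.35% of the sum in H3K9M and at 6.06%, 5.62% and 2.75% in H3WT, so its groups overlapped through H3WT replicate 3. Eng, Vwf, Esam and Nfatc1 were the 4 above. Eng reached 572%, 407% and 522% of the sum in H3K9M and 372%, 391% and 259% in H3WT while its log2 fold change in CPM was 0.02. A ratio of this kind shows unequal change only, and it was chosen after the values were seen.

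**Figure D5:**
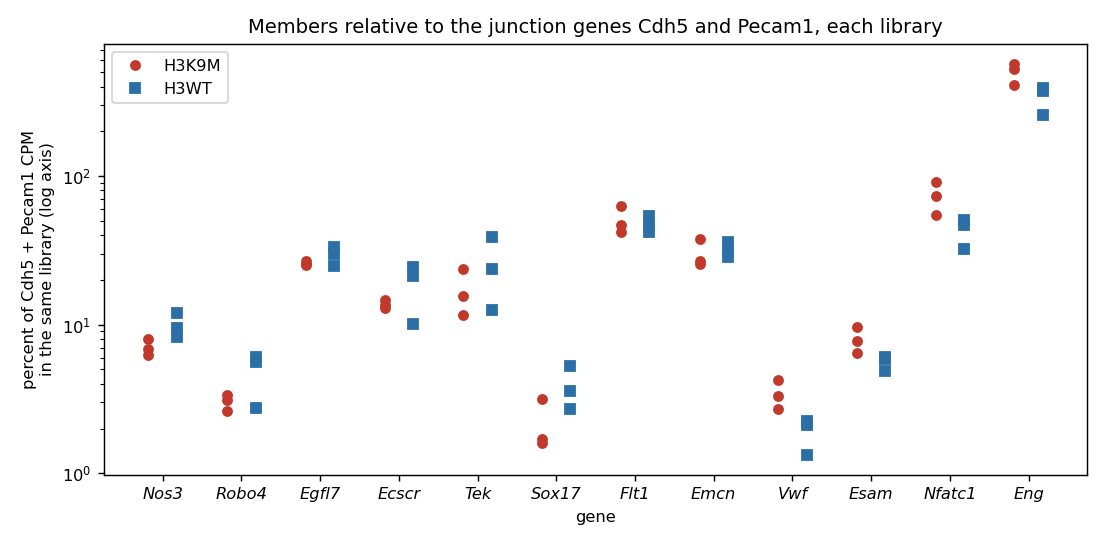
CPM of 12 members as a percentage of the summed CPM of Cdh5 and Pecam1 in the same library (log axis), with 1 point per library, H3K9M as red circles left of H3WT as blue squares. Nos3 lies lower in H3K9M (6.24% to 7.997%, against 8.28% to 11.9% in H3WT), and Vwf, Esam, Nfatc1 and Eng lie higher.

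The ligands and partners of these receptors included genes that changed in both directions. Of 25 genes listed 22 were tested, and 16 (72.7%) had negative log2 fold changes, where 50.5% of all genes did. Of the 22, 2 fell (1.05% of all genes) and 1 rose (0.935% of all genes), with a median of -0.29. Vegfc, a ligand of FLT4, was at 9.87, 11.8 and 12.9 CPM in H3K9M and at 21.6, 19.1 and 17.0 CPM in H3WT (-0.73 ± 0.14, edgeR adjusted p = 0.0431). Spns2, which exports the ligand of S1PR1, was at 9.46, 11.1 and 9.88 CPM in H3K9M and at 19.9, 15.7 and 15.4 CPM in H3WT (-0.74 ± 0.14, edgeR adjusted p = 0.0410). Nrp2, a co-receptor for VEGF-C and semaphorins, was the 1 that rose, at 189.8, 134.8 and 157 CPM in H3K9M and at 97.5, 112 and 98.7 CPM in H3WT (0.65 ± 0.12, edgeR adjusted p = 0.0421). The calls on Vegfc and Spns2 were lost without any library but H3WT replicate 3 (edgeR adjusted p up to 0.160 and 0.127) and with limma-voom (0.0517 and 0.0521), and that on Nrp2 without any library but H3K9M replicate 2 (up to 0.121).

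Of the partners that did not pass, Adm, the adrenomedullin ligand of CALCRL, averaged 34.5 ± 1.73 CPM in H3K9M and 94.5 ± 47.5 CPM in H3WT (SD, n = 3 each), with no overlap (-1.45 ± 0.33, edgeR adjusted p = 0.0697). Slit3 and Slit2, ligands of the roundabout family, had log2 fold changes of -1.68 ± 0.38 and -0.51 ± 0.13 (edgeR adjusted p = 0.0723 and 0.0990). Angpt2, a ligand of TIE2, averaged 7.77 ± 1.502 CPM in H3K9M and 15.7 ± 7.14 CPM in H3WT (-1.01 ± 0.30, edgeR adjusted p = 0.142). The most abundant were Lpl, the lipoprotein lipase bound by GPIHBP1, at 427 ± 46.1 CPM in H3K9M and 534 ± 79.8 CPM in H3WT, and the VEGF co-receptor Nrp1, at 260.1 ± 24.7 and 209.6 ± 24.6 CPM in these groups.

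Other endothelial and endocardial genes outside the list of 39 were also mostly negative. Of 41 names 38 were tested, and 30 (78.9%) had negative log2 fold changes, where 50.5% of all genes did. Of the 38, 3 fell (1.05% of all genes) and 0 rose (0.935% of all genes), with a median of -0.47. This list too was chosen with earlier results of these data known. Genes that other heart cell types may also express were not set apart in it, as they were for the members. Its negative share is therefore not a measure of endothelial cells alone. Adgrl4, an adhesion receptor of vessel sprouts, was at 0.786, 1.84 and 1.83 CPM in H3K9M and at 6.93, 5.51 and 6.77 CPM in H3WT, and fell (log2 fold change -2.11 ± 0.33, edgeR adjusted p = 0.0220). Adgrg6, an adhesion receptor needed for heart development, averaged 10.8 ± 3.33 CPM in H3K9M and 29.8 ± 4.78 CPM in H3WT (-1.46 ± 0.23, edgeR adjusted p = 0.0216). The endocardial gene Npr3, a clearance receptor of natriuretic peptides, averaged 5.89 ± 0.763 CPM in H3K9M and 12.5 ± 1.499 CPM in H3WT (edgeR adjusted p = 0.0181).

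The groups of these 3 genes did not overlap. Their calls were lost without replicate 2 of H3K9M (edgeR adjusted p from 0.0654 to 0.0822) or of H3WT (0.0874 to 0.109), that on Adgrl4 also without replicate 3 of H3K9M (0.0563) and that on Npr3 without replicate 1 of H3K9M (0.0607). With limma-voom all 3 passed (0.0230 to 0.0243), whereas with the replicate block all 3 calls were lost (edgeR adjusted p from 0.079 to 0.1). Of those that did not pass, Tm4sf1 (-0.50 ± 0.10, edgeR adjusted p = 0.0536), Pdpn (-1.24 ± 0.26, 0.0561) and Bcl6b (-0.78 ± 0.18, 0.0776) also had all H3K9M libraries below, and Slco2a1, a prostaglandin transporter (0.48 ± 0.11, 0.0764), had all of them above. Mcam and Afap1l1, the most abundant of this list besides Tm4sf1, averaged 328 ± 45.3 and 205 ± 11.5 CPM in H3K9M and 297 ± 96.1 and 177 ± 29.1 CPM in H3WT.

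The authors' deposited table of H3K9M against H3WT covered 37 of the 39 members, all except Lyve1 and Gpihbp1. In the authors' deposited table, 31 members had negative log2 fold changes, 3 were lower at an adjusted p under 0.05, where 2.30% of all genes were, and 0 were higher, where 1.80% were. The 3 in the authors' deposited table were Sox17 (log2 fold change -1.74 ± 0.51, adjusted p = 0.0197), Egfl7 (-0.82 ± 0.25, 0.0311) and Kdr (-1.28 ± 0.39, 0.0343). In the authors' deposited table Nos3 (-0.71 ± 0.29, 0.186) and Robo4 (-1.03 ± 0.40, 0.145) did not pass. The mean normalised count in the authors' deposited table was a median of 25.4% of the one computed from the deposited counts over 14412 shared genes, so the 2 tables do not hold the same counts. The sign of the log2 fold change was the same for 34 of the 37 members in the edgeR fit and in the authors' deposited table.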

How the data were processed

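Polyadenylated RNA was sequenced from 3 H3K9M and 3 H3WT libraries made with a Tecan kit, per the labels. HISAT2, featureCounts, DESeq2 and the build mm10 are named in the submitters' processing notes. Versions, annotation and strand setting: not given in the sources used here. Per the file headers, the authors deposited raw counts per gene and a DESeq2 comparison with a normalised mean count (signal), log2 fold change with its error, Wald statistic (a score, not used) and p-value with adjusted p-value.

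Counts were filtered with filterByExpr (minimum 10, total 15), scaled by TMM and tested with edgeR 4.0.16 (quasi-likelihood F test, R 4.3.3), with a term for group and p-values adjusted by Benjamini-Hochberg over 14758 genes at 0.05. Levels are CPM, counts over TMM-scaled library size. The standard error is the log2 fold change divided by the root of F. The common dispersion gave a biological coefficient of variation of 18.8%. Exon lengths and positions come from GENCODE M21 (GRCm38). Alternatives were DESeq2 1.42.0, limma-voom (limma 3.58.1), RLE factors, other filters, a replicate block and leaving out libraries. Pairs of replicates had a chi-square per gene of 26.46 to 117.8, so none is a copy.

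On simulated counts of 14758 genes for H3K9M against H3WT, edgeR called 173 genes, 14 of them false, and found 74% of the genes simulated with a 2-fold change and 85% of those with a 4-fold change. Each gene was simulated independently, without shifts shared by genes of a library, so these rates may not hold for the real libraries. Members and lists were chosen with earlier results of these data known. Full values are given for members past the threshold, the 10 next by p, the 6 highest per kilobase and those without overlap (21 in all); the other 18 are given by range or fold change. Of the 2 other gene lists, genes past the threshold, the next 4 by p and the 2 highest in CPM are named.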

Additional observations from a re-analysis of the deposited data

How the results depend on the processing

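The number of negative members moved little: 33 of 39 tested members were negative with RLE factors, without a filter, with DESeq2 and in the fit with the replicate block, 34 with limma-voom, and 23 of 27 with a filter of 5 CPM in at least 3 libraries. Leaving out 1 library at a time gave 30 to 35 negative members and medians from -0.79 to -0.37. Using only replicates 1 and 3 of both groups, a setting added after seeing the data, gave a median of -0.84. The count of members called lower (2 in edgeR) was 7 with DESeq2, 0 with limma-voom, 1 with the 5 CPM filter, 0 with the replicate block, 0 with replicates 1 and 3 only and 0 to 2 without 1 library at a time. The count called higher was 0 in every setting. Over all genes, the calls higher and lower were 138 and 155 in edgeR, 471 and 539 with DESeq2, 31 and 27 with the replicate block and between 30 and 149 and 30 and 223 without 1 library.

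With the replicate block the adjusted p was 0.164 for Nos3 and 0.153 for Robo4. The calls on Vegfc (edgeR adjusted p = 0.163), Spns2 (0.14), Nrp2 (0.151), Ddr2 (0.103) and Krt8 (0.103) were lost there too. The replicate numbers showed no clear pairing. Deviations from the group means correlated at -0.245, 0.0467 and -0.118 across genes for replicates 1, 2 and 3. Every H3K9M library correlated best with a differently numbered H3WT library. Deviations from a mean of 3 libraries sum to 0 within each group, so these correlations cannot settle whether libraries were paired. The titles carry tags of unstated meaning, M1, M2 and M5 in H3WT and M1, M3 and M5 in H3K9M. The block thus joined M2 with M3.

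Signs turned for 7 members when 1 library was left out. Vwf was at -0.0051 without H3K9M replicate 2, Icam2 at 0.17 without H3WT replicate 3, Gpihbp1 at 0.42 without H3WT replicate 1, and Esam at 0.01 without H3K9M replicate 3 and 0.08 without H3WT replicate 3. Eng ranged from -0.042 to 0.055, S1pr1 from -0.093 to 0.088 and Cd34 from -0.41 to 0.11. Eng was at -0.01 when H3K9M replicate 2 was left out and at -0.042 when H3WT replicate 1 was, S1pr1 at 0.04 when H3K9M replicate 3 was left out and at 0.088 when H3WT replicate 3 was, and Cd34 at 0.11 when H3WT replicate 1 was. Counting these, 27 of the 39 log2 fold changes turned or moved by over 1.5 times when some library was left out. The cause was not tested. Low counts limit Aplnr, Gpihbp1 and Lyve1.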
